A study of Homo sapiens with 6 samples.

Results

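Genes of the p53 family and genes known to respond to p53 were followed in SUM159 cells given decitabine. The set named 9 genes: the family members TP63 and TP73, and the p53-responsive genes GDF15, SUSD6, SFN, TP53I3, TP53INP1, ZMAT3 and SESN1. Of these, 7 had a feature whose platform annotation gave that symbol alone, out of 14884 genes named in this way, and each of the 7 had 1 such feature. TP63 and ZMAT3 were without a named feature and were not analysed here. The members had been chosen with earlier results of these data known.

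The study compared 2 groups of SUM159, an established human breast carcinoma line of the triple-negative kind, with 3 single-colour arrays in each. The treated cells had received 1 µM decitabine for 72 h, in medium renewed each day, and the untreated cells had been kept in control medium for the same time. The labels name no vehicle for the control medium, and the treatment protocol calls the drug a deoxy form of azacytidine where the sample descriptions call it decitabine. The line is a single tumour-derived culture, and the labels do not state that samples within a group came from separate cultures, so the p-values reflect variation among these arrays that could be purely technical. The arrays share replicate numbers across the groups, and each decitabine array was compared with the untreated array of its number.

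p53 is a transcription factor that is stabilised after DNA damage and switches on genes that halt the cell cycle, repair DNA or start cell death, and p63 and p73 are its relatives, which bind much the same DNA element. Decitabine is a cytidine analogue that enters DNA during replication and captures DNA methyltransferases, which leaves newly made DNA less methylated at CpG sites and can itself be sensed as DNA damage. SFN and TP73 are known from tumours as genes that can be silenced by such methylation.

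The arrays differed in their overall level, with medians over all features of 2.98 and 3.03 in the 2 arrays of replicate 1 and 2.29 to 2.42 in the other arrays, on the log2 scale in which the deposited values were read. Of the markers listed as high in the line, VIM, FN1, CD44, EGFR and ZEB1 had untreated means of 6.33 to 10.75, while TWIST1 was at 2.58. ESR1 and PGR, the receptors that a triple-negative tumour lacks, were at 2.03 and 1.91 in untreated cells. Of the other measured markers listed as low in the line, EPCAM was at 2.94, KRT8 at 3.95 and GATA3 at 5.65, so that list was not low throughout. EPCAM also rose after decitabine, by 1.10 (SE 0.14, limma adjusted p = 0.00829, and 0.127 without the replicate block). Other markers were called as well. ZEB1 changed by -0.51 (SE 0.12, limma adjusted p = 0.0438, and 0.480 without the block). EGFR changed by -1.15 (SE 0.13, limma adjusted p = 0.00504, and 0.0195 without the block). The immune cell marker CD14 rose by 0.72 (SE 0.14, limma adjusted p = 0.0247, and 0.115 without the block). The 9 measured markers of immune cells, endothelial cells and fibroblasts had group means of 1.64 to 3.28.

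The stretches of DNA before the start sites of the 4 members with the largest called changes are shown because decitabine acts on the methylation of CpG sites, which are in capitals. Each is the 250 bases upstream of a RefSeq start site in GRCh38.p14, on the plus strand and 5′ to 3′. They lie at chr1:3652266-3652515 for TP73 (the first of its 3 listed start sites), chr1:26862899-26863148 for SFN, chr19:18385908-18386157 for GDF15 and chr14:69611346-69611595 for SUSD6.
TP73: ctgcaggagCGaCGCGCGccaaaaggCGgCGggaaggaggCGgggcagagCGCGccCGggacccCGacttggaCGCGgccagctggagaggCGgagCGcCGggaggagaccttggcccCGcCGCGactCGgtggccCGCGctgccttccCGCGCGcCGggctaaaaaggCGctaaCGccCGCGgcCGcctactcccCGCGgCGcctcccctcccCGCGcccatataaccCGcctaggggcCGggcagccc
SFN: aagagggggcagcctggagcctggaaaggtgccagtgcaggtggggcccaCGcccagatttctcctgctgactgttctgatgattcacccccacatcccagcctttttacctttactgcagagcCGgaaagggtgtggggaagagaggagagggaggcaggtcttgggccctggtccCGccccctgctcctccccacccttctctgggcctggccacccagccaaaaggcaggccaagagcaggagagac
GDF15: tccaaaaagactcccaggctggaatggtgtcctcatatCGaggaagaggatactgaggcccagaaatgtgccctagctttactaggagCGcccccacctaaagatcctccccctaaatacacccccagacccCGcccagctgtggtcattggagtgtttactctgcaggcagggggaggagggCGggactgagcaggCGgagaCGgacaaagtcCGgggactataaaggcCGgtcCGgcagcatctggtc
SUSD6: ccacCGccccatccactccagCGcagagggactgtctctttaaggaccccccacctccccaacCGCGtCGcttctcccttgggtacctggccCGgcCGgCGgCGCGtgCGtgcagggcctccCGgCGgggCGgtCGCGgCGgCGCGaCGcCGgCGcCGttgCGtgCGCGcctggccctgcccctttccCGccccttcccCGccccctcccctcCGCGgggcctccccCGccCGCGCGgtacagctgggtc

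These start sites differed widely in their CpG content. In the full RefSeq window, from 250 bases before to 50 after the start, CpGs (the motif CG, the same on both strands) numbered 49 for TP73, 43 for SUSD6, 11 for GDF15 and 7 for SFN, against a median of 14 over 35116 windows of the same length. The window of TP73 held more CpGs than 98.4% of the windows, whereas that of SFN held more than 36.8%. The other 2 listed windows of TP73 held 15 and 11 CpGs, near the median, and the array feature does not tell which start site was used. Methylation itself was not measured.

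Among the 7 measured members, SFN, TP73 and SESN1 rose after decitabine and GDF15 and SUSD6 fell, while TP53I3 and TP53INP1 did not pass the test. Calls were made at an adjusted p under 0.05 in a limma fit with the replicate number as a block, with Benjamini-Hochberg adjustment across 14884 genes. That fit called 13.2% of all genes, 7.79% as higher and 5.37% as lower. Changes of the members ran from -1.52 to 1.52 with a median of 0.57 on the log2 scale, against a median of -0.02 over all genes. Since the members had been chosen with earlier results of these data known, their median and counts do not measure a shift of p53-responsive genes. The groups did not overlap for 5 of the 7 members, and for 20.1% of all genes (11.3% with decitabine higher and 8.74% with decitabine lower).

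**Figure D1:**
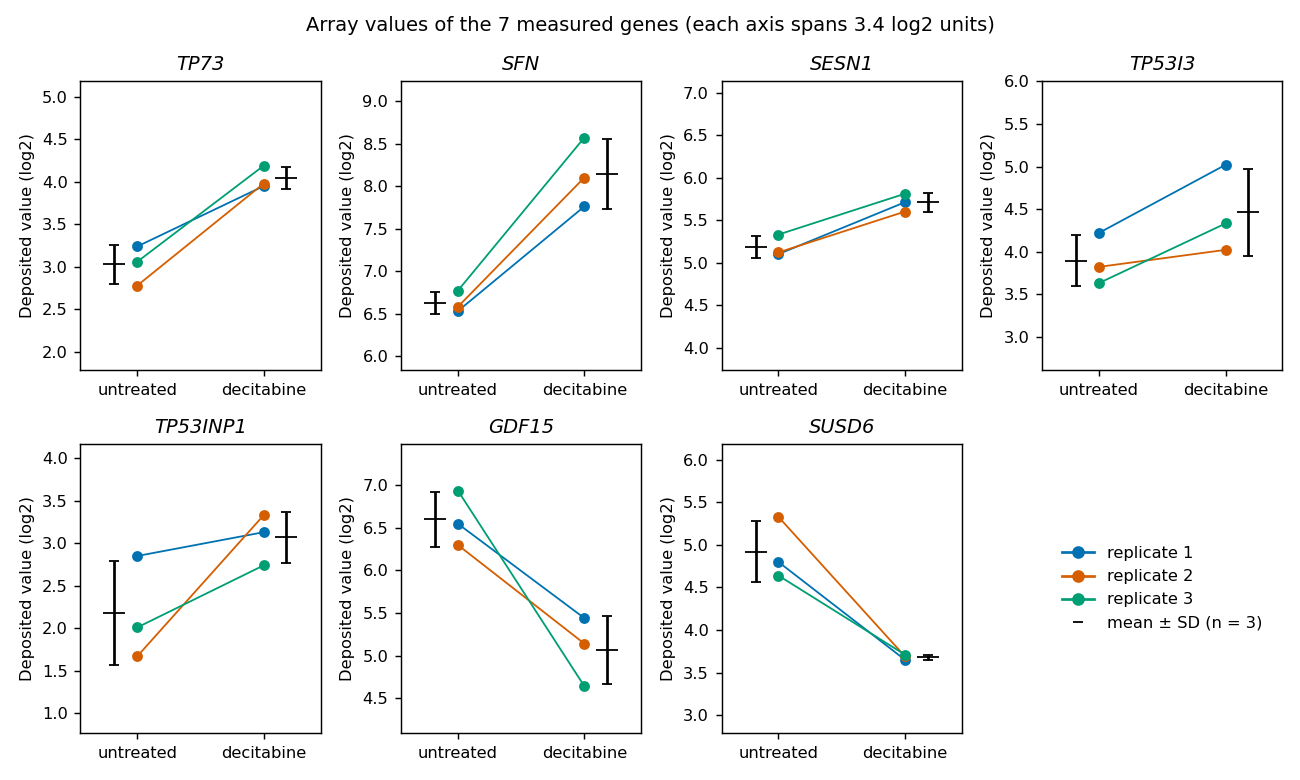
Deposited log2 values of the 7 measured genes in the 6 arrays, with a line joining the 2 arrays of each replicate number and black marks for the mean ± SD (n = 3) of each group. SFN, TP73 and SESN1 were higher in each decitabine array than in any untreated array, GDF15 and SUSD6 were lower in each, and the groups of TP53I3 and TP53INP1 overlapped.

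TP73 (Entrez Gene 7161), on chromosome 1, encodes p73, which exists as full-length forms that activate p53 target genes and as shortened forms that oppose them. Its values were 3.24, 2.78 and 3.06 in untreated replicates 1, 2 and 3, and 3.95, 3.98 and 4.19 in the decitabine replicates. Every decitabine array lay above the highest untreated array. The mean went from 3.03 ± 0.23 to 4.04 ± 0.13 (SD, n = 3 each), a log2 difference of 1.01 (SE 0.15, limma adjusted p = 0.0113) or 2.02-fold, with pair differences of 0.71, 1.20 and 1.13. Without the block the adjusted p was 0.0478, close to the threshold. The single feature does not tell the forms of p73 apart, and its untreated values were near the array medians, so the size of the rise holds for the deposited values alone.

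SFN (2810), on chromosome 1, encodes 14-3-3 sigma, a p53-induced adaptor protein of epithelial cells that keeps cyclin-dependent kinase complexes out of the nucleus. Untreated replicates 1 to 3 had values of 6.53, 6.58 and 6.77, and decitabine replicates 1 to 3 had 7.76, 8.10 and 8.57. The groups were apart by far more than the untreated arrays differed among themselves. The mean rose from 6.63 ± 0.13 to 8.14 ± 0.41 (SD, n = 3 each), a log2 difference of 1.52 (SE 0.15, limma adjusted p = 0.00393) or 2.86-fold, and the pairs gave 1.23, 1.52 and 1.80. It was the largest rise among the members, and it also passed without the block (adjusted p = 0.0195). Its start site window, from 250 bases before to 50 after the start, was the poorest in CpGs of the 4 counted above. CpGs further along the gene were not counted, and any part of methylation in the rise of SFN was not tested.

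SESN1 (27244), on chromosome 6, encodes sestrin 1, a stress-induced protein that restrains the growth kinase complex mTORC1. It read 5.10, 5.12 and 5.33 in untreated replicates 1 to 3 and 5.71, 5.60 and 5.81 in their decitabine partners. The shift was small and even, with pair differences of 0.61, 0.48 and 0.48 and no overlap of the groups. The mean went from 5.18 ± 0.13 to 5.71 ± 0.11 (SD, n = 3 each), a log2 difference of 0.52 (SE 0.12, limma adjusted p = 0.0422) or 1.44-fold. The call rested on the pairing, since without the block the adjusted p was 0.256.

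A search for p53 motifs near the start sites of the members gave 1 partial match, at 1 of the 3 listed starts of SESN1. The search was for the 10-base repeat unit of the p53 response element, which reads the same on both strands in its consensus. The unit was found in 1 of the 10 RefSeq windows of the 6 members that had any, and in 6.63% of all 35116 windows. A single match among 10 windows is near that share and does not set SESN1 apart. The complete element, with 2 such units at most 13 bases apart, was in none of the 10 and in 0.0285% of all windows. The match began 49 bases before the third listed start of SESN1, within chr6:109008989-109009088 on the minus strand of GRCh38.p14, and is in capitals here.
SESN1: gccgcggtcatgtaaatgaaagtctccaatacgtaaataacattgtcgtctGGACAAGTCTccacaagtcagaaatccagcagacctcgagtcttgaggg

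TP53I3 (9540), on chromosome 2, encodes a quinone oxidoreductase that p53 induces and that has been tied to oxidative stress in apoptosis. Its untreated values were 4.22, 3.82 and 3.63 and its decitabine values 5.02, 4.02 and 4.33 in replicates 1 to 3. Each pair was higher with the drug, by 0.80, 0.20 and 0.70, but decitabine replicate 2 lay below untreated replicate 1. The change of 0.57 (SE 0.16, 95% interval 0.18 to 0.96) did not pass the test (limma adjusted p = 0.0726, and 0.505 without the block).

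TP53INP1 (94241), on chromosome 8, encodes a stress-induced nuclear protein that promotes p53 activity and autophagy. It was dim, with values of 2.85, 1.67 and 2.01 in the untreated and 3.13, 3.33 and 2.74 in the decitabine replicates. The pairs differed by 0.28, 1.66 and 0.73, so replicate 2 carried much of the mean. The change was 0.89 (SE 0.26, 95% interval 0.25 to 1.53), with a limma adjusted p of 0.0827, and 0.258 without the block. It passed with arrays centred on their medians (0.0347), while TP53I3 passed with the dimmer 50% of genes left out (0.0332).

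GDF15 (9518), on chromosome 19, encodes a secreted cytokine of the TGF-beta superfamily that is induced by p53 and by the integrated stress response. Values of 6.55, 6.30 and 6.94 in untreated replicates 1 to 3 stood against 5.44, 5.14 and 4.64 in the decitabine replicates. All 3 decitabine arrays were below the untreated ones, and the third pair fell about as far as the other pairs together (-1.11, -1.16 and -2.30). The mean went from 6.60 ± 0.32 to 5.07 ± 0.40 (SD, n = 3 each), a log2 difference of -1.52 (SE 0.25, limma adjusted p = 0.0168) or 2.87-fold lower, with 0.0281 without the block.

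SUSD6 (9766), on chromosome 14, encodes a sushi-domain membrane protein that is a p53 target. The untreated replicates were at 4.80, 5.33 and 4.64 and the decitabine replicates at 3.65, 3.69 and 3.71. The decitabine arrays were almost equal, while the untreated arrays spread more widely above them. Its mean went from 4.92 ± 0.36 to 3.68 ± 0.03 (SD, n = 3 each), a log2 difference of -1.24 (SE 0.17, limma adjusted p = 0.00938) or 2.36-fold lower. The fall also passed without the block (0.0326).

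**Figure D2:**
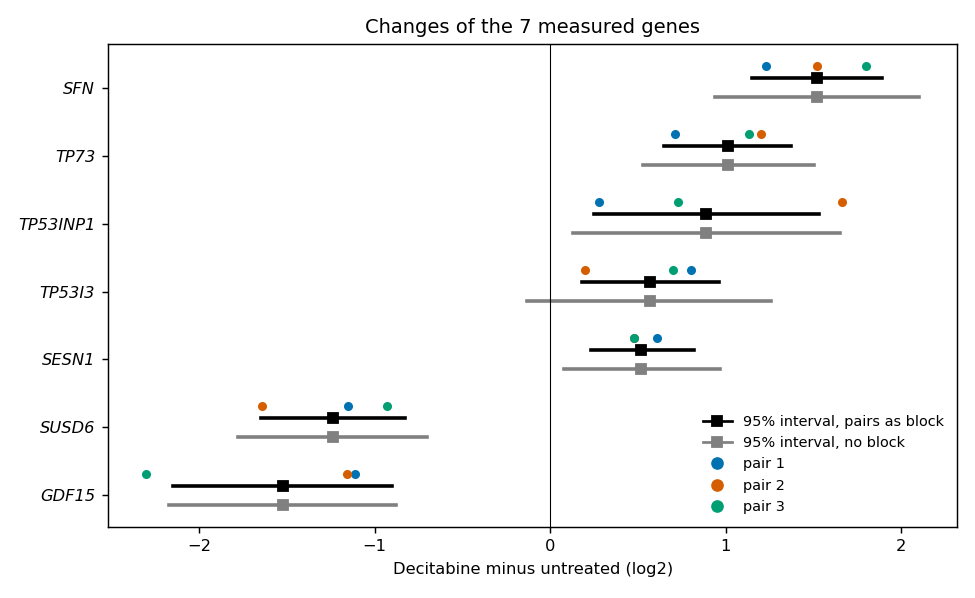
Decitabine minus untreated on the log2 scale for the 7 measured genes. Coloured points are the 3 pair differences (those of SESN1 in pairs 2 and 3 coincide), and squares with bars are the fitted change and its 95% interval with the pairs as a block (black) and without (grey). The black intervals lay on 1 side of 0 for all 7 genes, the grey interval of TP53I3 spanned 0, and the adjusted test passed 5 genes with the block and 4 without.

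The calls of the members needed all 3 pairs. With any 1 pair left out, the blocked limma fit called 0 of the 14884 genes, although 2449 to 3514 had an unadjusted p under 0.05. The 5 called members then had adjusted p-values of 0.0807 to 0.266 and kept their direction, and 5 or 6 of the 7 members had an unadjusted p under 0.05. Of the 4 members called without the block, each missed the threshold there when most single arrays were left out. GDF15 kept its call without decitabine replicate 1, TP73 and SUSD6 without untreated replicate 1, and SFN without either of these arrays, and each lost it without any other array (adjusted p of 0.0509 to 0.217).

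The wider set of p53 targets moved in both directions. Of 85 listed genes, 50 were named on the array, among them 6 of the members. In this list 8 rose (16.0%, against 7.79% of all genes), 11 fell (22.0%, against 5.37%) and 31 did not pass the test, and the median change was -0.04 against -0.02 over all genes. These counts include members, and of the 44 listed genes that were not members 6 rose and 9 fell. This list and those below were, like the members, chosen with earlier results of these data known. Their counts and medians therefore do not measure a shift of such genes. Without the block 1 of the 50 genes rose and 4 fell, where 2.01% and 1.02% of all genes did. The gene that rose there was the member SFN, and the members GDF15 and SUSD6 were among those that fell. The CDK inhibitor gene CDKN1A and the p53 ubiquitin ligase gene MDM2 lacked a named feature and are not analysed here.

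APAF1, the scaffold of the apoptosome that activates caspases, had the largest rise of the list. Its values were 4.62, 5.75 and 5.82 in the untreated and 7.03, 7.03 and 6.82 in the decitabine replicates, so the decitabine arrays were nearly level and untreated replicate 1 was low. The change was 1.56 (SE 0.28, limma adjusted p = 0.0197, and 0.0504 without the block). TIGAR, a phosphatase that slows glycolysis, rose by 1.10 (SE 0.14, adjusted p = 0.00743), and the kinase gene PLK2 by 1.11 (SE 0.25, adjusted p = 0.0421). PURPL, a long noncoding RNA induced by p53, rose by 1.15 (SE 0.22, adjusted p = 0.0254) from a dim mean of 1.84. Without the block these 3 genes had adjusted p-values of 0.105 to 0.345, and the groups of PLK2 and PURPL overlapped.

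The falls among the targets were led by SESN2, which encodes sestrin 2. SESN2 read 5.97, 6.83 and 6.89 in untreated and 3.58, 3.98 and 3.90 in decitabine replicates 1 to 3. The gap between the groups was wide, and the change was -2.74 (SE 0.16, limma adjusted p = 9.79e-04, and 0.00333 without the block), or 6.70-fold lower. E2F7, a repressor of E2F-driven genes, changed by -1.45 (SE 0.14, adjusted p = 0.00351, and 0.0123 without the block). PMAIP1, which encodes the pro-apoptotic BCL2 family protein NOXA, changed by -1.09 (SE 0.13, adjusted p = 0.00681), but its adjusted p was 0.0834 without the block. The apoptosis effector BAX, named after its values were seen, showed no called change (0.06, 95% interval -0.27 to 0.39, adjusted p = 0.821).

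**Figure D3:**
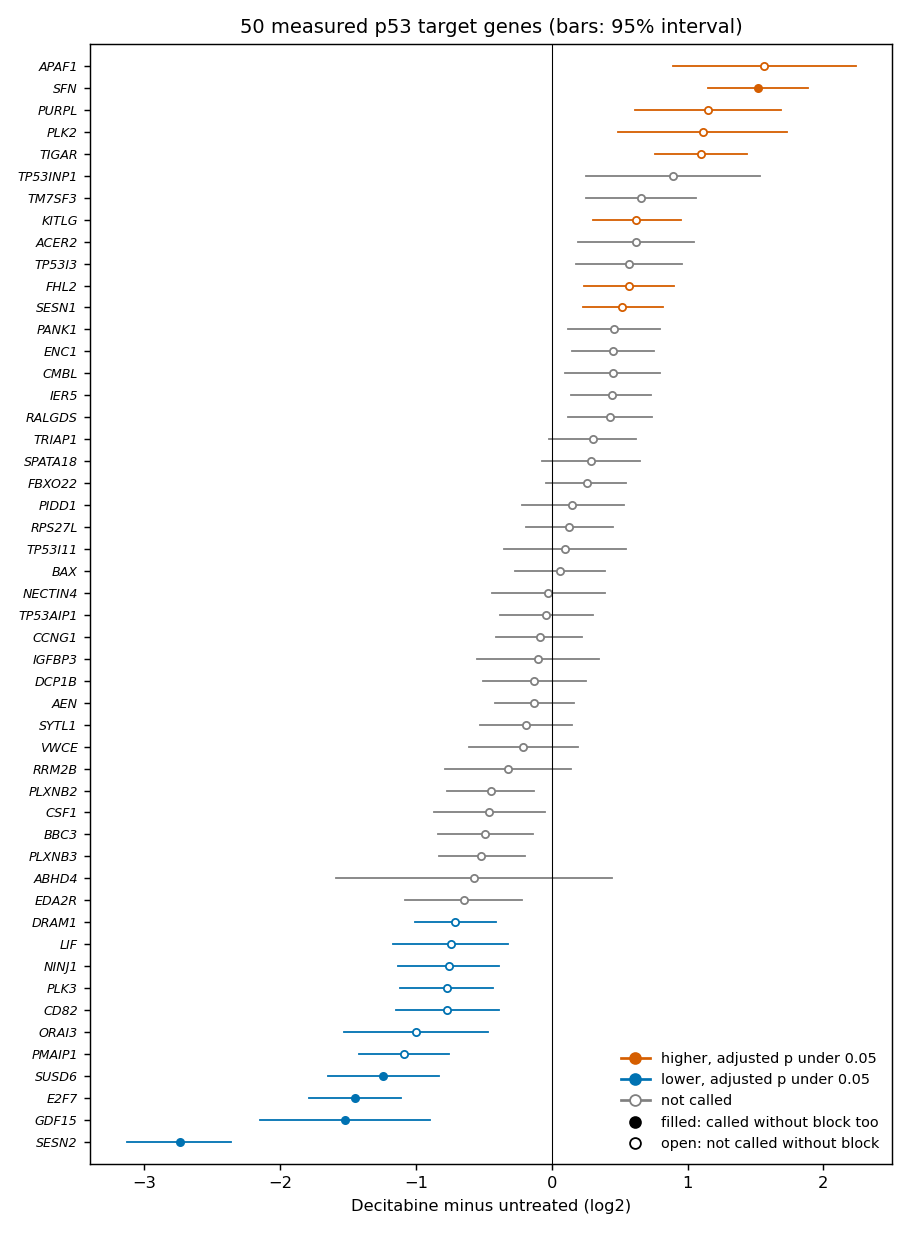
Decitabine minus untreated on the log2 scale for the 50 measured p53 target genes, ranked, with bars for the 95% interval of the blocked fit. Orange genes (8) were called higher and blue genes (11) lower, grey genes (31) were not called, and filled points mark the 5 genes also called without the block, SFN, SUSD6, E2F7, GDF15 and SESN2.

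The sestrin genes did not share a direction. SESN2 changed by -2.74, whereas SESN1 rose by 0.52 and SESN3 by 0.73 (SE 0.13, limma adjusted p = 0.0193, and 0.146 without the block). SESN3 read 4.15, 3.72 and 3.75 in untreated and 4.78, 4.63 and 4.41 in decitabine replicates 1 to 3, without overlap. Of 24 listed paralogues of the members 10 were named, of which 2 rose and 2 fell, against 7.79% and 5.37% of all genes. Without the block 0 rose and 1 fell, where 2.01% and 1.02% of all genes did. The other called paralogues were SUSD1, which rose by 1.05 (SE 0.16, adjusted p = 0.0138, and 0.0820 without the block), and SUSD5, which changed by -0.55 (SE 0.12, adjusted p = 0.0375, and 0.275 without the block). Both share the SUSD symbol with SUSD6, and how closely these genes are related was not tested. TP53INP2, the relative of TP53INP1, had a change of 0.13 (SE 0.15, adjusted p = 0.614). The 14-3-3 relatives of SFN lacked a named feature and are not analysed here.

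GDF15 and SESN2 are also known to be induced by ATF4, the transcription factor of the integrated stress response, and genes of that response fell in these cells. ATF4 went from 8.39 ± 0.15 to 7.19 ± 0.11 (SD, n = 3 each), a log2 difference of -1.20 (SE 0.12, limma adjusted p = 0.00399). A list of ATF4-responsive genes, which includes SESN2 but not GDF15, had 14 measured genes. Of these 10 fell (71.4%, against 5.37% of all genes) and 1 rose (7.14%, against 7.79%), with a median change of -1.80 against -0.02 over all genes. The gene that rose was ATF5 (1.10, SE 0.23, limma adjusted p = 0.0302, and 0.104 without the block). The log2 values of the 14 genes, ATF4 and SESN2 among them, summed to 87.47 to 89.65 in untreated and 65.01 to 67.33 in decitabine arrays. These sums restate the 10 falls of a list chosen with earlier results known, and are no separate result. The part of ATF4 in the falls of GDF15 and SESN2 was not tested.

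Genes that regulate p53 stayed mostly below the threshold, as genes in general did, with 2 exceptions. Of 34 listed regulators 20 were named, of which 1 rose (5.0%, against 7.79% of all genes) and 1 fell (5.0%, against 5.37%). The counts were the same without the block, where 2.01% of all genes rose and 1.02% fell. The median change in the blocked fit was 0.00, against -0.02 over all genes. MDM4, which encodes a p53-binding inhibitor of its activity, read 7.23, 7.70 and 7.65 in untreated and 5.86, 6.21 and 6.17 in decitabine replicates 1 to 3. All pairs fell by a like amount, and the change was -1.45 (SE 0.12, limma adjusted p = 0.00239, and 0.0155 without the block) or 2.73-fold lower. ZNF385A, a zinc finger protein that binds p53 and favours its cell cycle arrest genes, went from 2.65, 1.84 and 2.33 to 3.87, 3.89 and 3.72. The values were dim but apart, with a change of 1.55 (SE 0.19, adjusted p = 0.00657, and 0.0174 without the block). The checkpoint kinase genes CHEK1 and CHEK2, named after their values were seen, changed by 0.41 (adjusted p = 0.0902) and -0.03 (adjusted p = 0.923) without passing the test.

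Targets of p63 and p73 in basal epithelium were mixed as well. Of 32 listed genes 21 were named, of which 3 rose (14.3%, against 7.79% of all genes) and 4 fell (19.0%, against 5.37%), with a median change of 0.11. Without the block 2 rose and 2 fell, where 2.01% and 1.02% of all genes did. DSG3, a desmosomal cadherin, read 2.51, 2.02 and 2.00 in untreated and 4.49, 4.36 and 4.23 in decitabine replicates 1 to 3, a change of 2.18 (SE 0.13, limma adjusted p = 0.00104). The arrays of each group lay close together and the groups far apart, but the untreated mean of 2.18 was as dim as the markers of other cell types, so the size of the rise holds for the deposited values alone. The keratin gene KRT5 rose by 1.75 (SE 0.35, adjusted p = 0.0295, and 0.0497 without the block) and the desmosome gene DSP by 1.08 (SE 0.19, adjusted p = 0.0197, and 0.257 without the block). KRT5 was dim in untreated cells as well, at a mean of 2.57, and its pair differences of 0.69, 2.68 and 1.88 were uneven.

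The p63 and p73 targets that fell were CSTA, EGFR, JAG1 and FERMT1. CSTA, a cysteine protease inhibitor of the epidermis, went from 6.79 ± 0.04 to 5.03 ± 0.10 (SD, n = 3 each), a log2 difference of -1.76 (SE 0.13, limma adjusted p = 0.00144). EGFR, the receptor of epidermal growth factor, changed by -1.15 (SE 0.13, adjusted p = 0.00504), and both falls also passed without the block (0.00333 and 0.0195). JAG1, a Notch ligand, changed by -0.90 (SE 0.13, adjusted p = 0.0107), and FERMT1, an integrin activator, by -0.58 (SE 0.12, adjusted p = 0.0324). Their adjusted p-values were 0.0730 and 0.249 without the block.

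**Figure D4:**
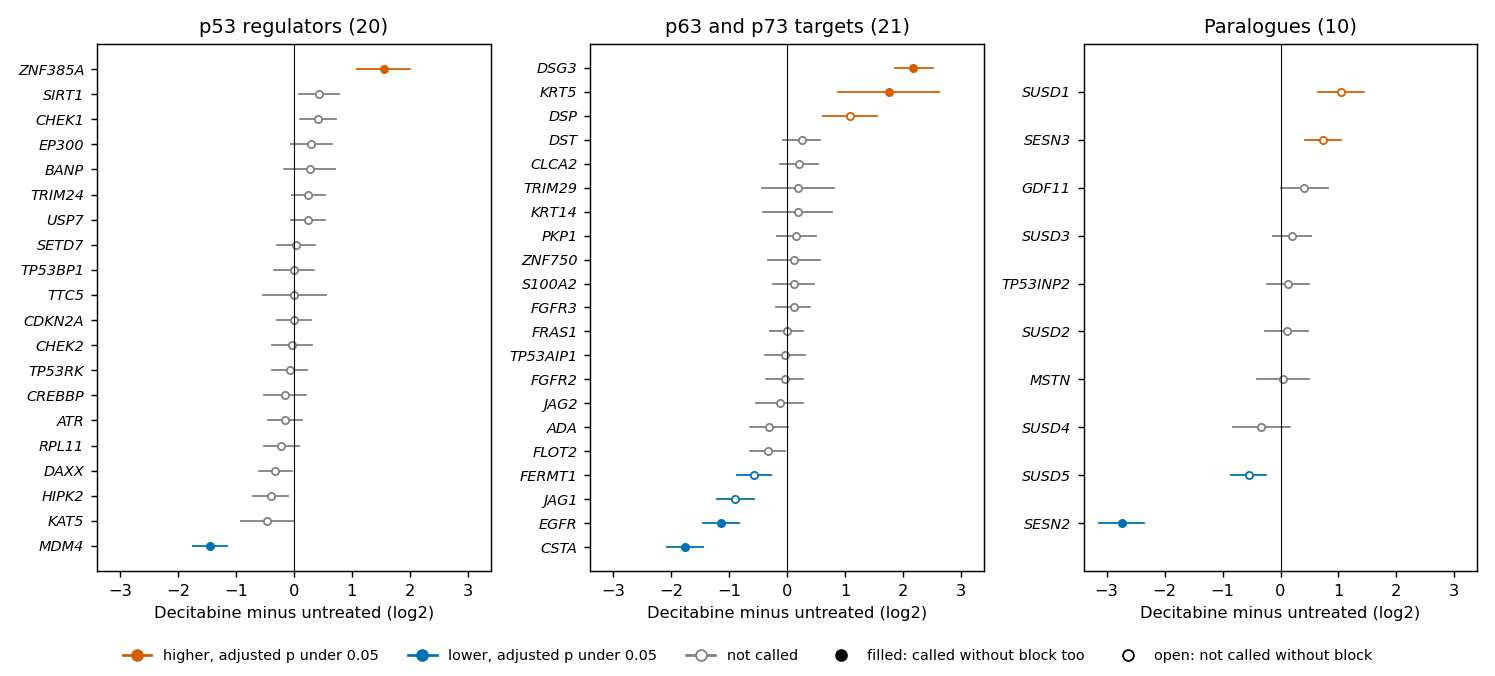
Decitabine minus untreated on the log2 scale, with the 95% interval of the blocked fit, for the measured p53 regulators (20), p63 and p73 targets (21) and paralogues of the members (10). Orange marks genes called higher, blue genes called lower and grey genes not called, and filled points were also called without the block. MDM4 and ZNF385A were the called regulators, DSG3 (from a dim untreated level) and CSTA had the largest fitted rise and fall of the p63 and p73 targets, and SESN2 the largest fall of the paralogues.

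For each member, the 2 other genes with the highest Pearson correlation over the 6 arrays were found, as a description of arrays that share the treatment and the pairing. They were SDF2L1 and IDI1 for TP73 (both 0.995), SKA2 and HSPA1A for SFN (0.993 and 0.992), and PLSCR4 and DBR1 for SESN1 (both 0.996). TP53I3 was most alike to ADM (0.999) and SFXN5 (0.995), and TP53INP1 to NOTUM and DUSP19 (both 0.977). GDF15 was most alike to BTBD9 (0.996) and SPNS1 (0.994), and SUSD6 to HIVEP1 and KRT75 (both 0.994). Between 30 genes (for TP53INP1) and 183 genes (for TP73) had a correlation over 0.95 with a member, so these names are the top of a long list.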

How the data were processed

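Expression was measured on 6 single-colour arrays, and 1 deposited table held 48226 features per array. Per the submitters' processing notes, the authors used the Transcriptome Analysis Console, but no source used here gives its version, the normalization, any filter or the build. Reading the deposited values as log2 was based on their range, 0.17 to 12.89. The log base is not stated, so every log2 change and fold rests on that reading.

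Features with a single symbol in the platform annotation (16098, none with several) were named, with current symbols from RefSeq (GRCh38.p14), in which all 16098 Entrez Gene IDs were found. A gene with several features was represented by that of highest mean across the arrays, which gave 14884 genes. Groups were compared with limma 3.58.1 in R 4.3.3 (lmFit and eBayes, two-sided, Benjamini-Hochberg over all genes, called at an adjusted p under 0.05). The replicate number was a block because the rule that defines the members pairs the arrays by title. The number of arrays limits the precision, and no measure of background was used. The fit was tested on simulated data.

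The pairing was then checked in the values. Deviations from the group means correlated at 0.682, 0.595 and 0.558 between same-numbered arrays and at -0.483 to -0.006 between the others. The deviations within a group cancel out, so positive correlations between same-numbered arrays pull the others down, and the contrast is partly built in. Between 6.45% and 8.28% of features had exactly equal values in same-numbered arrays, against 0.417% to 1.02% in other pairs. Whether the link arose in culture or in later processing cannot be told apart. No member had an identical value within a pair.

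The members and gene lists were chosen with earlier results of these data known. Named are the members, up to 10 called genes with the largest change in each of the lists of p53 targets, p53 regulators, p63 and p73 targets and paralogues, and the 2 genes most alike to each member. Settings tried are the block, normalization, dim genes, the features tested, several features per gene, the variance prior and left-out replicates. Promoter sequences are RefSeq's, and 6 of the 7 measured members had an entry.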

Additional observations from a re-analysis of the deposited data

How the results depend on the processing

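The direction of the 26 genes followed one by one, members included, was the same in all settings run. Without the block, 4 members were called in place of 5 (SESN1 was lost), and the counts fell from 1959 to 451 for all genes, from 19 to 5 for p53 targets, from 7 to 4 for p63 and p73 targets and from 4 to 1 for paralogues. Testing all 48226 features gave 1188 genes and 11 p53 targets, and, among the 26, ended the calls of SESN1, PLK2, KRT5, FERMT1 and SUSD5 (adjusted p of 0.0522 to 0.0873). An intensity trend in eBayes gave 6 regulators in place of 2. Leaving out replicate pairs or, without the block, single arrays gave 0 to 477 genes, 0 to 3 members, 0 to 7 p53 targets, 0 to 2 regulators, 0 to 5 p63 and p73 targets, 0 to 1 paralogues and 0 to 10 ATF4-responsive genes. With 2 pairs the blocked fit called no gene at all. Without the block, all genes numbered 477, 140 and 188 without untreated replicates 1, 2 and 3, and 278, 130 and 199 without decitabine replicates 1, 2 and 3.

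Settings added after seeing the data were these. Median centring without the block gave 371 genes, 1 member (GDF15), 3 p53 targets, 1 regulator, 2 p63 and p73 targets and 1 paralogue. Quantile normalization without the block gave 938 genes, 3 members (GDF15, SUSD6 and SFN) and 9 p53 targets. Leaving out the 2260 genes with an identical value within a pair gave the same 5 members. The cause of these differences was not tested.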

Other observations

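The other 8 p53 targets past the threshold of the blocked fit are named here after their values were seen. DRAM1, a lysosomal regulator of autophagy, went from 6.97 ± 0.03 to 6.26 ± 0.11 (SD, n = 3 each), a change of -0.71 (SE 0.12, limma adjusted p = 0.0178, and 0.0988 without the block). NINJ1, which ruptures the plasma membrane in dying cells, changed by -0.76 (SE 0.15, adjusted p = 0.0275), the tetraspanin CD82 by -0.77 (SE 0.16, adjusted p = 0.0298) and the cytokine LIF by -0.74 (SE 0.17, adjusted p = 0.0448). KITLG, the ligand of the receptor KIT, rose by 0.62 (SE 0.13, adjusted p = 0.0338). The calcium channel gene ORAI3 went from a mean of 4.50 to 3.51 (SE of the change 0.22, adjusted p = 0.0356), the kinase gene PLK3 changed by -0.77 (SE 0.14, adjusted p = 0.0214) and FHL2, which encodes a LIM-domain protein, by 0.57 (SE 0.13, adjusted p = 0.0449). None of these 8 genes passed without the block (0.0988 to 0.754), and the groups of CD82, LIF, KITLG and ORAI3 overlapped.

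Values identical within a pair were found mainly among dim genes. The 2260 genes with an identical value in at least 1 pair had a median over genes of 2.36 in their mean level, against 3.91 for the others, and 18 genes were identical in all 3 pairs, among them the p53 regulator CDKN2A at a mean of 1.68 in both groups.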
